A study of Rattus norvegicus with 10 samples.

Results

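The Zfp genes, a large group of zinc finger genes whose symbols are Zfp followed only by digits, were measured in the rat trigeminal ganglion (TG), the ganglion that holds the sensory neurons of the face and mouth. The arrays carried 177 probes for 146 such genes. *Zfp36* was left out, since its product binds messenger RNA through another type of finger and is not part of the family of DNA-binding fingers. Members were chosen by their symbol and then selected on the scanner's mark for a signal well above background: a gene was tested when its probe carried that mark on all 5 arrays of at least 1 group. This left 141 genes of the 19269 features tested in all.

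TGs were taken from 8-week-old male Wistar rats, bilaterally and whole, after perfusion with saline. In the oral ulcerative mucositis (OUM) group, filter paper soaked in 50% acetic acid had been laid on the mucosa in front of the lower incisors under anesthesia, and the ganglia were collected on day 2, when ulcers were visible. The naive rats, labelled as controls, were age-matched, received anesthesia alone and were collected with the same day label. Each group had 5 rats with 1 single-color array per rat. The whole ganglion was used, although the lesion lies in the territory of the mandibular branch alone. The labels name no slide, but the slide barcodes that came with the scanner data place 7 arrays (4 naive, 3 OUM) on one slide, called slide 1 here, and 3 (1 naive, 2 OUM) on another, slide 2. Probe signals are given below as log2 of the signal relative to the 75th percentile of the array, so that 0 is the level of that percentile, and changes are OUM minus naive on that log2 scale.

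Most Zfp proteins carry rows of C2H2 fingers, small loops held by a zinc ion that read DNA bases in sequence. Many also have a KRAB domain, which brings in the corepressor Trim28 (KAP1) and, with it, the histone methylation that silences transposons and imprinted genes. Others have no KRAB domain and act at promoters, on chromatin partners, in neural development, in RNA handling or as ubiquitin and SUMO ligases.

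No Zfp gene passed the test of OUM against naive rats after adjustment over all features. The lowest adjusted p of the family was 0.181 (limma, Benjamini-Hochberg), and of all features 2 passed, or 0.0104%. At an unadjusted limma p under 0.05, 14 Zfp genes were lower (9.93%) and 5 were higher (3.55%) in the OUM group, while of all features 5.12% were lower and 3.9% were higher. The methods' t-test on the same values likewise left no Zfp gene past the adjusted threshold, with 17 lower and 6 higher before adjustment (12.1% and 4.26%, beside 5.01% and 3.26% of all features). The named genes below therefore describe the ends of the family's distribution and not genes shown to change.

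The balance of these counts moved with the scaling. With each array set to its median over the probes well above background on all 10 arrays, 8 Zfp genes were lower and 7 higher. Quantile normalization gave 11 lower and 6 higher. Background correction by normexp, followed by quantile normalization, gave 9 lower and 6 higher, and the authors' own scaling 11 lower and 7 higher. In that order, 2.86%, 3.93%, 3.66% and 3.62% of all features were lower, beside 5.67%, 7.8%, 6.38% and 7.8% of the Zfp genes. Likewise 5.66%, 4.71%, 4.48% and 4.82% of all features were higher, beside 4.96%, 4.26%, 4.26% and 4.96% of the Zfp genes. The median log2 change of all features was -0.011 with the main scaling and, in the same order, 0.012, 0.0016, 0.0015 and 0.0022. That of the Zfp genes was -0.027 with the main scaling and -0.0031, -0.012, -0.0057 and -0.013 with the others. The size of the family median thus depended on the scaling, while it remained lower than that of all features in each setting.

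Changes within the family were small. The log2 change was below 0 for 81 of 141 Zfp genes (57.4%), beside 54.7% of all features. Its median was -0.027, with quartiles of -0.085 and 0.047 and a range from -0.26 to 0.39, beside a median of -0.011 and quartiles of -0.070 and 0.061 over all features. Of the Zfp genes, 98 had a log2 change smaller than 0.1 in size and 4 had one larger than 0.2. The 95% interval of the change had a median half-width of 0.145. It lay wholly inside 0.5 on either side of 0, or 1.41-fold, for 133 genes and inside 0.25, or 1.19-fold, for 80 genes.

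**Figure D1:**
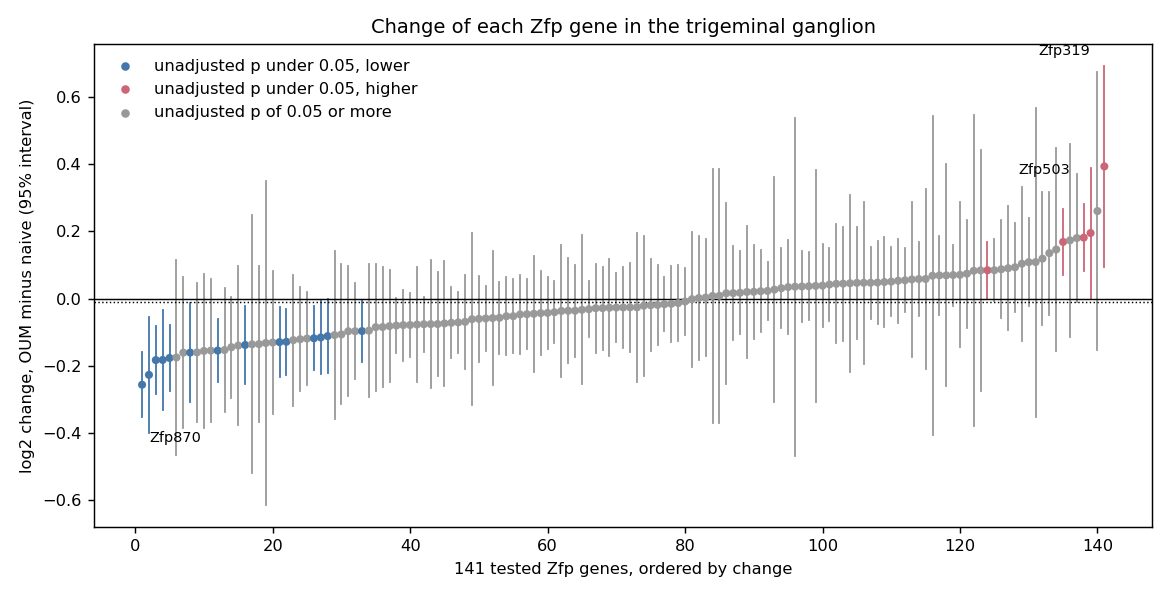
The log2 change (OUM minus naive, y axis) of each of the 141 tested Zfp genes (points) is drawn in ascending order (x axis) with its 95% interval from limma, 5 rats per group; the dotted line is the median of all features, -0.011. The points run from -0.26 (*Zfp870*) to 0.39 (*Zfp319*), and 14 blue and 5 red genes have an unadjusted p under 0.05.

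In 8 Zfp genes the OUM and naive arrays did not overlap. In 5 of them, *Zfp870*, *Zfp68*, *Zfp445*, *Zfp451* and *Zfp472*, all 5 OUM arrays lay below all 5 naive arrays (3.55% of the family, beside 1.05% of all features). In 3, *Zfp503*, *Zfp467* and *Zfp598*, all OUM arrays lay above (2.13%, beside 0.778% of all features). For such genes the exact two-sided permutation p over the 252 assignments of arrays is 0.00794 by construction, the smallest that 5 against 5 arrays allow, so it adds nothing to their selection.

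The promoters of 6 of these genes are shown so that the letters behind the motif counts given further on can be read. They are the 3 lower genes with the lowest p, *Zfp451*, which was the only one of the 8 to hold the start of the ZNF143 motif, and the 2 higher genes with the lowest p. Each run is the 250 bases before the RefSeq gene start on the gene's own strand in GRCr8, 5′ to 3′, with matches to the motifs in capitals (CCAAT and its reverse complement ATTGG, the GC box GGGCGG, and ACTACAA, the start of the motif of ZNF143). They lie at chr7:12654321-12654570 on the minus strand for *Zfp870*, chr12:21139661-21139910 on the plus strand for *Zfp68*, chr8:131350750-131350999 on the minus strand for *Zfp445*, chr9:43536607-43536856 on the minus strand for *Zfp451*, chr15:2362200-2362449 on the plus strand for *Zfp503* and chr4:78723136-78723385 on the minus strand for *Zfp467*. No binding or methylation was measured there.
Zfp870: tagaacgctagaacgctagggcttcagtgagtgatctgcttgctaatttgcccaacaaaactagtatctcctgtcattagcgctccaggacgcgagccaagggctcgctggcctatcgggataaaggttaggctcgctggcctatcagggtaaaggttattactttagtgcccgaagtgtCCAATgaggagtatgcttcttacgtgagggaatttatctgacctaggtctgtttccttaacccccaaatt
Zfp68: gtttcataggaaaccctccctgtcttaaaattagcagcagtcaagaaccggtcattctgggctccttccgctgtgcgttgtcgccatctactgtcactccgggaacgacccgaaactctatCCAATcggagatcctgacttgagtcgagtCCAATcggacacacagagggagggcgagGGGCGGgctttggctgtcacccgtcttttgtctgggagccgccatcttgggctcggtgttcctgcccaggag
Zfp445: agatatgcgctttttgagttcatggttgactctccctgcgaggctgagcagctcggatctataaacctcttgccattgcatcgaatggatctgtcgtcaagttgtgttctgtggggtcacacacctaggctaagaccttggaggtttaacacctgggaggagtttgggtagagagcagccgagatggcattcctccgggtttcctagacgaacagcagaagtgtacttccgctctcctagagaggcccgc
Zfp451: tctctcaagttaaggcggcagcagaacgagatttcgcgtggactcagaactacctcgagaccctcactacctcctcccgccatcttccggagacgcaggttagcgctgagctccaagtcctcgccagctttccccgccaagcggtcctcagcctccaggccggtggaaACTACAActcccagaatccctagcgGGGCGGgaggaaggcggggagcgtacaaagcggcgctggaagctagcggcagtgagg
Zfp503: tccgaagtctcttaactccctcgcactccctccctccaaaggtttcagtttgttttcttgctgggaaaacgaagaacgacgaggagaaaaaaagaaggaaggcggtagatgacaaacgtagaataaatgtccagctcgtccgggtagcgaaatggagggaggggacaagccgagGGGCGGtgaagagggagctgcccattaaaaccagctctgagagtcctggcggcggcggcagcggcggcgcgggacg
Zfp467: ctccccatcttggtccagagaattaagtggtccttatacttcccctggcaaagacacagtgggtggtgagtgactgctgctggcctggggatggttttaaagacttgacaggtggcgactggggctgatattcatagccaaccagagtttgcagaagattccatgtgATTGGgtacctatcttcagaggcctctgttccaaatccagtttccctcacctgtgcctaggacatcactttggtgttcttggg

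*Zfp870* had the lowest p of the family. Its signal on the naive arrays was -2.61, -2.60, -2.55, -2.72 and -2.55, and on the OUM arrays -2.86, -2.82, -2.86, -2.90 and -2.87. The 2 groups were tight and apart, with naive 4, the only naive array of slide 2, nearest to the OUM group. The means were -2.61 ± 0.070 and -2.86 ± 0.029 (SD, n = 5 each), a log2 change of -0.26 (SE 0.043, limma unadjusted p = 0.000137, adjusted p = 0.181), or 0.837 of the naive level.

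*Zfp68* had naive values of -1.21, -1.38, -1.33, -1.40 and -1.34 and OUM values of -1.48, -1.55, -1.50, -1.48 and -1.56. Every OUM array was lower, although the lowest naive array and the highest OUM array lay closer to each other than naive 1 lay to the other naive arrays. The fit gave a log2 change of -0.18 (SE 0.045, limma unadjusted p = 0.00221, adjusted p = 0.385).

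*Zfp445* encodes a KRAB zinc finger protein that, together with *Zfp57*, keeps the methylation of imprinted regions. Its naive values were -0.28, -0.26, -0.26, -0.39 and -0.30 and its OUM values -0.42, -0.46, -0.43, -0.55 and -0.51. The lowest array of each group was replicate 4, and both lay on slide 2. *Zfp445* had a log2 change of -0.18 (SE 0.044, limma unadjusted p = 0.00244, adjusted p = 0.385). *Zfp57* itself was at -3.71 ± 0.095 in naive and -3.64 ± 0.053 in OUM rats (SD, n = 5 each), a log2 change of 0.07 (SE 0.053) with overlapping groups and an adjusted p of 0.722 in limma. Without naive 1 or naive 5 that change was 0.04. Of the 4 tested genes of the imprinting, early embryo and germ line list, *Zfp445* was lower and none was higher at an unadjusted p under 0.05, with a list median of -0.036. Over all features, 5.12% were lower and 3.9% higher, with a median of -0.011.

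Among the Zfp genes with functions on RNA, ribosomes and ubiquitin, 8 were tested, with 1 lower, 1 higher and a median of -0.015. Each was 12.5% of a short list, beside 5.12% lower and 3.9% higher of all features. *Zfp451* encodes a SUMO ligase. It read -1.11, -1.11, -1.14, -1.08 and -0.999 in naive and -1.17, -1.20, -1.24, -1.27 and -1.15 in OUM rats. The gap between the groups was small beside their spread, and the log2 change was -0.12 (SE 0.043, limma unadjusted p = 0.0197, adjusted p = 0.502). *Zfp598* encodes the ubiquitin ligase that marks collided ribosomes. It read 0.34, 0.23, 0.31, 0.30 and 0.33 in naive and 0.36, 0.43, 0.35, 0.39 and 0.40 in OUM rats. All OUM arrays were higher, by a log2 change of 0.08 (SE 0.038, limma unadjusted p = 0.0499, adjusted p = 0.553), or 1.06-fold.

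Among the Zfp genes of neural development and neurons, 6 were tested, with 2 higher, 1 lower and a median of -0.031. Of all features, 3.9% were higher and 5.12% lower, and a list of 6 genes is too short to compare with these shares. *Zfp503* (Nolz1) and *Zfp703* encode related zinc finger proteins that act as corepressors in development. *Zfp503* read -2.44, -2.49, -2.51, -2.56 and -2.51 in naive and -2.26, -2.27, -2.29, -2.41 and -2.37 in OUM rats. All OUM arrays were higher, and the 2 of slide 2 were nearest to the naive group. On average the log2 change came to 0.18 (SE 0.044, limma unadjusted p = 0.00217, adjusted p = 0.385).

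*Zfp703* read -1.96, -1.84, -1.99, -2.31 and -2.16 in naive and -1.93, -1.80, -1.82, -1.78 and -1.97 in OUM rats. The groups overlapped, and naive 4 and naive 5 were the lowest arrays. The log2 change was 0.19 (SE 0.087, limma unadjusted p = 0.0480, adjusted p = 0.549), with 0.14 within slide 1 and 0.44 within slide 2. *Zfp292*, a long zinc finger gene tied to neurodevelopmental disorders, went the other way, with naive values of -1.56, -1.74, -1.67, -1.62 and -1.54 and OUM values of -1.92, -1.76, -1.91, -1.67 and -1.68. OUM 1 and OUM 3 stood lowest, and OUM 4 and OUM 5 lay inside the naive range. Its log2 change was -0.16 (SE 0.066, limma unadjusted p = 0.0345, adjusted p = 0.529).

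Among the promoter and chromatin partners outside the KRAB class, 16 were tested, of which 2 were lower (12.5%, beside 5.12% of all features), none was higher (beside 3.9%) and the median was 0.004. *Zfp644* encodes a partner of the histone methyltransferases G9a and GLP. It was at 1.57 ± 0.068 in naive and 1.44 ± 0.042 in OUM rats (SD, n = 5 each), a log2 change of -0.13 (SE 0.044, limma adjusted p = 0.488). Its groups overlapped through naive 4, at 1.46, against OUM arrays of up to 1.49. *Zfp131*, which encodes a BTB domain zinc finger protein, was at 1.91 ± 0.081 and 1.79 ± 0.052, a log2 change of -0.12 (SE 0.049, limma adjusted p = 0.536).

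Of the 141 tested genes, 34 were on 1 of the 4 role lists. The others had 57% of their changes below 0, with 8.41% lower and 1.87% higher at an unadjusted limma p under 0.05, beside 54.7%, 5.12% and 3.9% of all features, and a median of -0.027. *Zfp467*, known from the choice of marrow stromal cells between fat and bone, read -0.36, -0.40, -0.30, -0.28 and -0.23 in naive and -0.21, -0.12, -0.11, -0.14 and -0.15 in OUM rats. Naive 5 and OUM 1 lay close together, and the other arrays were further apart. The log2 change was 0.17 (SE 0.045, limma unadjusted p = 0.00358, adjusted p = 0.424).

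*Zfp319* had the largest change of the family, 0.39 (SE 0.134, limma unadjusted p = 0.0150, adjusted p = 0.488). Its signal was dim and its spread was wide: -5.20, -5.31, -5.27, -4.89 and -4.91 in naive and -4.92, -4.49, -4.99, -4.41 and -4.81 in OUM rats. The groups overlapped, and the exact permutation test gave p = 0.0556.

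*Zfp472* was the narrowest case of groups that did not overlap. Its naive arrays lay between -3.148 and -2.96 and its OUM arrays between -3.161 and -3.149, so that naive 2 and OUM 5 were separated by about the last digit given. The log2 change was -0.10 (SE 0.042, limma adjusted p = 0.537).

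**Figure D2:**
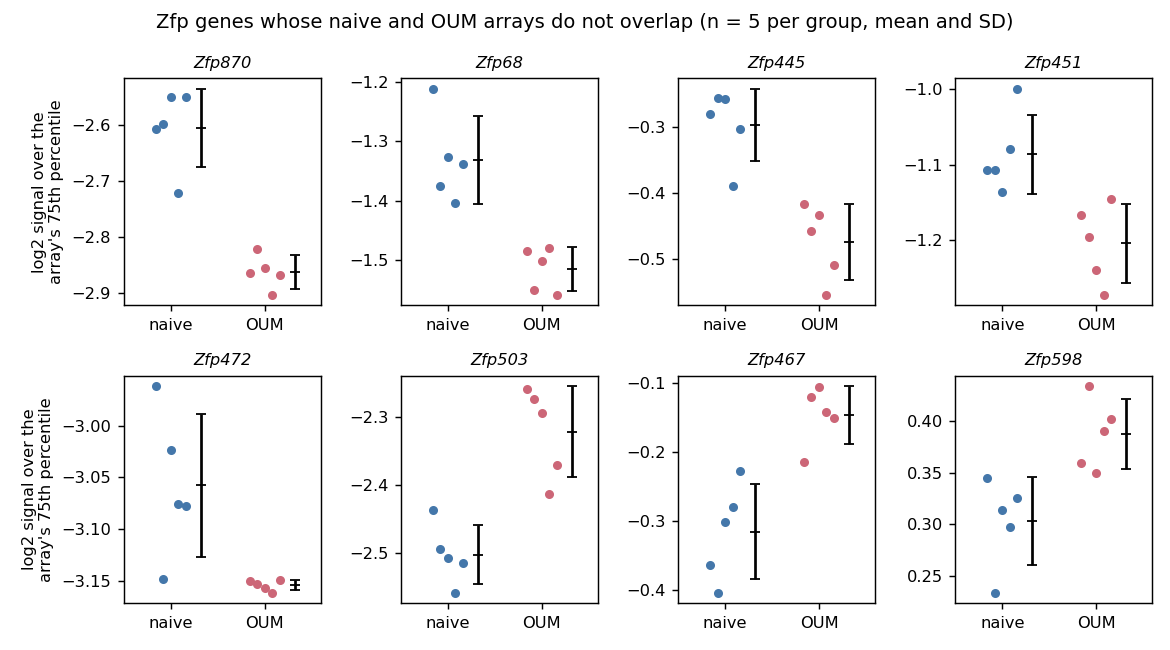
Each panel shows 1 of the 8 Zfp genes whose groups did not overlap, with the log2 signal over the array's 75th percentile (y axis, own range in each panel) of the 5 naive (blue) and 5 OUM (red) arrays and, in black, the mean and SD. The upper row and *Zfp472* are lower in OUM, and *Zfp503*, *Zfp467* and *Zfp598* are higher; the gap is widest for *Zfp870* and closes almost to nothing for *Zfp472*.

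The remaining lower genes overlapped between the groups. *Zfp317* went from -1.02 ± 0.055 to -1.17 ± 0.049 (SD, n = 5 each), a log2 change of -0.15 (SE 0.043), and the highest OUM array, OUM 5 at -1.09, lay at the level of the lowest naive array. *Zfp597* had a log2 change of -0.23 (SE 0.077), with OUM 1 at -4.00 inside the naive range of -4.09 to -3.89 and the other OUM arrays at -4.44 to -4.23. The log2 changes of *Zfp612*, *Zfp954* and *Zfp84* were -0.13 (SE 0.047), -0.18 (SE 0.067) and -0.14 (SE 0.053). *Zfp426*, named here after its values were seen because it is the last of the 14, had a log2 change of -0.11 (SE 0.049). The limma adjusted p of these 6 genes ran from 0.437 to 0.546.

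Of the higher genes with an unadjusted p of 0.05 or more, the first 5 by p were *Zfp566* (log2 change 0.18, SE 0.085), *Zfp64* (0.08, SE 0.042), *Zfp746* (0.11, SE 0.059), *Zfp213* (0.07, SE 0.041) and *Zfp524* (0.14, SE 0.082). *Zfp746* encodes PARIS, a repressor of PGC-1alpha that parkin marks for degradation. All 5 had overlapping groups and a limma adjusted p of 0.568 to 0.656. The log2 change of *Zfp566* was 0.076 within slide 1 and 0.46 within slide 2, and that of *Zfp524* was 0.08 without naive 4. After normexp background correction, followed by quantile normalization, several named changes were smaller. They were -0.13 for *Zfp597*, -0.080 for *Zfp292*, -0.064 for *Zfp131* and -0.048 for *Zfp472*. Among the higher genes they were 0.25 for *Zfp319*, 0.050 for *Zfp64* and 0.045 for *Zfp746*. All 122 genes with an unadjusted p of 0.05 or more lay between -0.18 and 0.26.

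Several Zfp genes were read by more than 1 probe, which gives a second look at the same RNA on the same arrays. For 28 genes there were 29 further tested probes, of which 21 had a change of the same sign as the probe with the highest signal. The 7 lower genes with a further probe (*Zfp445*, *Zfp644*, *Zfp612*, *Zfp84*, *Zfp292*, *Zfp131* and *Zfp426*) all had a second change below 0, from -0.19 for *Zfp612* to -0.069 for *Zfp292*, and 3 of these had an unadjusted limma p under 0.05. The second probe of *Zfp445* changed by -0.14 with an unadjusted limma p of 0.289. Both further probes of *Zfp703* were higher, by 0.14 and 0.34. Among the genes with an unadjusted p of 0.05 or more, 12 of 20 further probes had the same sign. The probes share their arrays and are not replicates of the comparison.

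**Figure D3:**
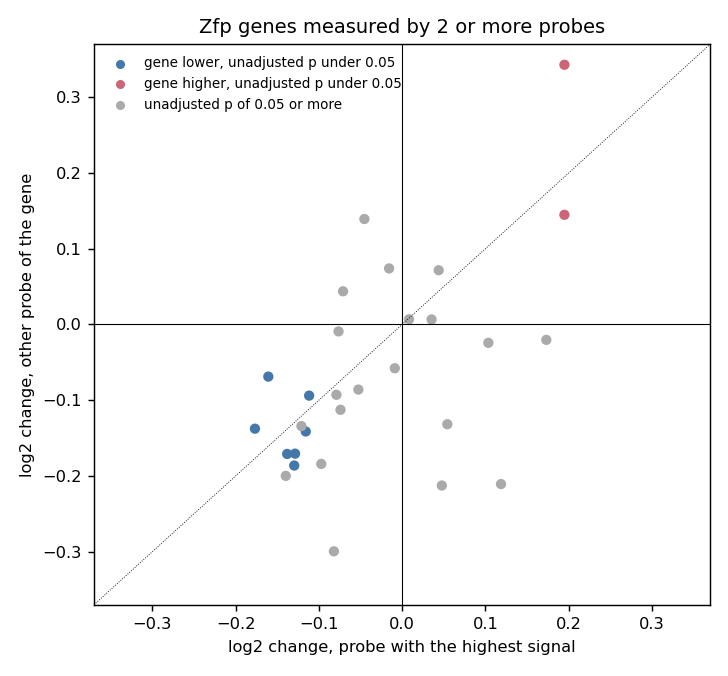
For the 28 Zfp genes with 2 or more tested probes, the log2 change (OUM minus naive) of each of the 29 further probes (y axis) is set against that of the probe with the highest signal (x axis); the dotted line marks equal changes. The 7 blue genes lie at the lower left and both further probes of *Zfp703* (red) in the upper right, while 8 of the 20 grey points have opposite signs.

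The level of the family as a whole overlapped between the groups. The median deviation of the 141 genes from their own means was 0.028, 0.016, 0.016, -0.016 and 0.045 on the naive arrays and -0.021, -0.027, -0.047, 0.001 and 0.033 on the OUM arrays. The OUM arrays of slide 1 were lowest, and OUM 5 was above most naive arrays. After the group means were taken out, the correlation between pairs of Zfp genes averaged 0.037 over the 10 arrays and was above 0 for 54.0% of 9870 pairs, beside an average of 0.017 over all features; the pairs share arrays and probe-level noise. The within-group SD of a Zfp gene had a median of 0.102 and ran from 0.034 to 0.398, beside a median of 0.124 over all features.

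**Figure D4:**
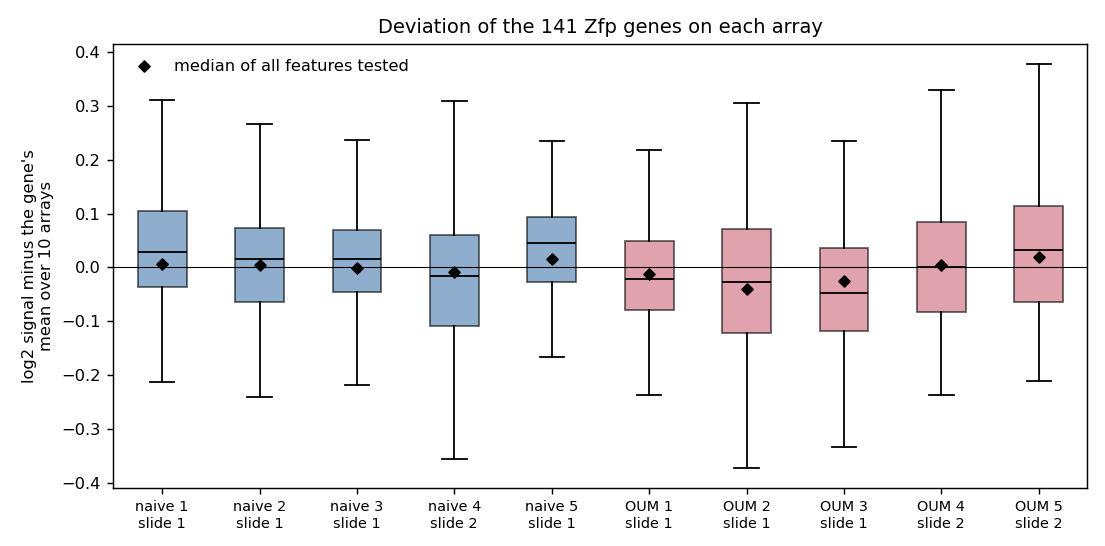
Boxes give the median and quartiles, and whiskers the range within 1.5 times the box, of the log2 signal of the 141 Zfp genes minus each gene's mean over the 10 arrays (y axis), by array (x axis, naive blue, OUM red); diamonds are the medians of all features. The box medians stay between -0.047 and 0.045, and those of the 2 groups overlap.

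Within slide 1, 91 Zfp genes were below 0 and the median was -0.055, beside -0.037 over all features, and 23 were lower and 8 higher at an unadjusted limma p under 0.05, beside 9.06% and 4.7% of all features. Slide 2 held a single naive array, so its values describe 3 arrays and its p-values show little. There, 60 Zfp genes were below 0 and the median was 0.024, beside 0.018 over all features. The shift of sign between the slides was thus also present in the median of all features. With slide as a block, 20 were lower and 6 higher (14.2% and 4.26%), beside 7.1% and 4.74% of all features. The sign was the same in both slides for 74 of 141 genes. The 14 lower and 5 higher genes, which were picked on all 10 arrays, had the same sign in both, and 13 of the 14 had the smaller change in slide 2.

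**Figure D5:**
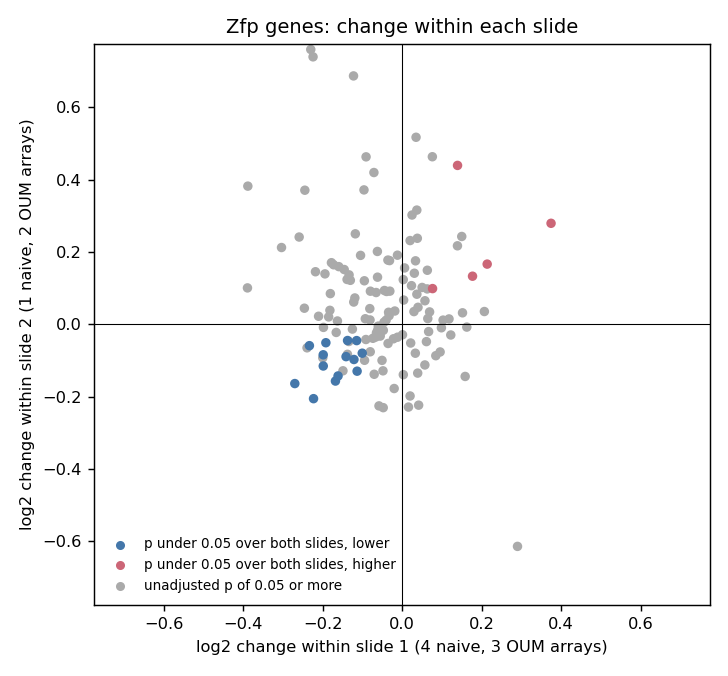
The log2 change (OUM minus naive) of each of the 141 Zfp genes within slide 2 (y axis, 1 naive and 2 OUM arrays) is set against that within slide 1 (x axis, 4 naive and 3 OUM arrays). Grey points lie on all sides of both axes, with 74 of 141 genes of 1 sign in both slides, while the 14 blue and 5 red genes, chosen on all arrays, lie in the lower left and upper right.

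Most Zfp genes were detected on every array. Of the 141 tested Zfp genes, 135 were well above background on all 10 arrays. The other 6 entered through 1 group: *Zfp831* was marked on 3 naive and 5 OUM arrays, *Zfp667*, *Zfp563*, *Zfp217* and *Zfp819* on 4 naive and 5 OUM arrays each, and *Zfp516* on 5 naive and 4 OUM arrays. Just outside the rule, *Zfp329* was marked on 3 naive and 4 OUM arrays. *Zfp475* was marked on 1 naive array and *Zfp483* on 1 OUM array, and *Zfp494* and *Zfp352* were not well above background on any. These 5 were not tested.

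The proteins that KRAB zinc fingers recruit, and silencing proteins that act with them, made a list of 35, of which 22 had a named probe and 19 were tested. None was higher and 2 were lower at an unadjusted limma p under 0.05 (10.5%), beside 3.9% and 5.12% of all features. None passed the adjusted threshold, and the median was 0.005. In 2 of the 19 all OUM arrays lay below all naive arrays, as in 1.05% of all features. *Smarcad1*, a chromatin remodeler that binds Trim28, was at -4.43 ± 0.070 in naive and -4.62 ± 0.101 in OUM rats (SD, n = 5 each), with all OUM arrays below all naive ones. Its log2 change was -0.18 (SE 0.058, limma unadjusted p = 0.00941, adjusted p = 0.484). *Mphosph8*, a subunit of the HUSH silencing complex, was lower by a log2 change of -0.11 (SE 0.042, limma adjusted p = 0.505). *Cbx3* (HP1 gamma) and *Trim28* were named after their values were seen. *Cbx3* did not overlap between the groups, with a log2 change of -0.07 (SE 0.039, limma unadjusted p = 0.0875, adjusted p = 0.613). *Trim28* had a log2 change of 0.08 (SE 0.056, limma adjusted p = 0.684). That of *Trim28* was 0.017 without naive 1, OUM 1 and OUM 2, the 3 arrays with the highest summed signal of pituitary hormones, and that of *Smarcad1* was -0.10 after normexp and -0.058 within slide 2.

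Other zinc finger families on the arrays gave the following counts at an unadjusted limma p under 0.05, at which 3.9% of all features were higher and 5.12% lower. Of 25 Zbtb genes, 1 was higher and none lower, with a median log2 change of -0.036. Of 6 Zscan and Zkscan genes none was higher or lower, with a median of -0.062 and all 6 below 0. Of 21 Klf and Sp genes, 4 were higher and 1 lower, with a median of 0.028. A single Znf gene was tested, and it was neither. The difference between these families and the Zfp genes was not tested.

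Zfp genes often lie side by side in the genome, having arisen by local duplication. The order used was that of RefSeq protein-coding genes, without those named only by a LOC or RGD number, so neighbors need not touch. Only Zfp genes with a probe were counted, and 14 runs of neighbors held 32 of them. Of the 30 tested genes with another such Zfp gene beside them, 15 were below 0, 1 was lower and none higher at an unadjusted limma p under 0.05, with a median log2 change of -0.013. Of the 111 others, 66 were below 0, 13 were lower and 5 higher, with a median of -0.027. Over all features, 54.7% were below 0, 5.12% lower and 3.9% higher, and the difference between the 2 sets was not tested. The longest run, *Zfp26*, *Zfp426*, *Zfp266* and *Zfp846*, had 3 of 4 below 0 and a median of -0.065.

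A RefSeq promoter was matched to 124 of the 146 genes, of which 120 were tested. In the 250 bases before the gene start these 120 held a median of 14 CG dinucleotides (quartiles 9 and 19.25) and 57.6% G and C, beside 6 (quartiles 2 and 16) and 52% over 27457 promoters. The 120 belong to genes detected in the ganglion, while the 27457 were taken without regard to detection, so the 2 sets differ in more than the family. On either strand, the ZNF143 motif start ACTACAA was in 6.67% of the 120 and 2.97% of all promoters, the GC box GGGCGG in 47.5% and 32.4%, the E-box CACGTG in 6.67% and 5.79%, and CCAAT in 36.7% and 34.3%. Of the 44 Zfp genes with CCAAT, 31 were below 0, with a median log2 change of -0.059. Of the 76 without it, 37 were below 0, with a median of 0.002. For the GC box the medians were -0.036 with it and -0.026 without it, for the E-box -0.0094 with it (8 genes) and -0.027 without it, and for the ZNF143 motif start -0.050 with it (8 genes) and -0.026 without it. Of the 8 genes whose groups did not overlap, *Zfp870*, *Zfp68*, *Zfp472* and *Zfp467* held CCAAT, 3 lower and 1 higher in OUM. A match of letters is a description and not a site of binding, and these differences were not tested.

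Defining markers of the TG were present: all 12 sensory neuron genes were well above background on all 10 arrays, with a summed signal of 528 to 576 times the 75th percentile on naive and 486 to 600 on OUM arrays. Their median log2 change was -0.080, with 1 lower and none higher at an unadjusted limma p under 0.05. The medians were 0.089 for 5 satellite glia genes, 0.066 for 7 Schwann cell genes and 0.18 for 5 macrophage genes. At an unadjusted limma p under 0.05, 1 satellite glia gene was lower and 1 Schwann cell gene higher. No macrophage gene was either, beside 5.12% lower and 3.9% higher of all features. The part of these cell types in the Zfp values was not tested. In whole ganglia, fewer cells of a type and less RNA per cell cannot be told apart. Pituitary hormone genes, 4 of 7 above background on all arrays, summed to 0.335 to 21.4 on naive and 1.07 to 26.1 on OUM arrays and were highest on naive 1, OUM 1 and OUM 2. Without these 3 arrays, 8 Zfp genes were lower and 2 higher, beside 4% and 4.49% of all features, and their median was -0.016. The 4 central nervous system genes had a median log2 change of 0.52, 2 of them higher at an unadjusted limma p under 0.05, with sums of 1.103 to 2.33 on naive and 1.54 to 3.24 on OUM arrays; their part in the Zfp values was not tested. The 75th percentile was 2620 to 2949 signal units, and between 69.0% and 75.6% of probes per array carried the mark for signal above background.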

How the data were processed

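TG RNA from 5 naive and 5 OUM rats was labelled with Cy3 and hybridized to SurePrint G3 Rat GE arrays. Per the file headers and labels, the authors extracted spot intensity with Agilent Feature Extraction 10.7.1.1; the deposited processed intensity has background subtracted. The deposited values of the series hold the authors' signal after GeneSpring GX scaling: they equal the processed intensity of each array divided by a constant (r = 1 on the log2 scale, column medians 0.115 to 0.123).

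Outlier and control spots were left out. The deposited intensity was put on the log2 scale, averaged over the spots of a probe and set against the 75th percentile of the array. Accessions were matched to symbols in a RefSeq table (GRCr8), naming 18438 of 30367 probes and leaving 11929 unnamed, and each gene was represented by its brightest probe on average. Cross-hybridization between near-identical Zfp genes was not checked. Groups were compared with limma 3.58.1 in R 4.3.3 (package data.table, version 1.17.8), with two-sided p-values adjusted by Benjamini-Hochberg across the 19269 features, and named genes also by exact permutation of arrays. The number of arrays limits the precision.

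The members, the role, corepressor and marker lists and the rule for named genes were chosen with earlier results of these data known. Named genes were the 10 higher and 10 lower Zfp genes with the lowest p, those whose groups did not overlap, and the 2 genes with the lowest p of each role list and of the corepressor list. Alternatives were other scalings, quantile normalization, and normexp (offset 50, on the median spot signal) followed by quantile normalization. Further ones were other filters and probe rules, outlier spots kept, slide as a block, the slides separately and the replicate block. A robust fit with an intensity trend, the methods' t-test, the authors' scaled values and each array left out were also used. Leaving out the 3 arrays richest in pituitary genes was added after seeing the data. Protein classes (KRAB domain, number of fingers) were not analysed here.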

Additional observations from a re-analysis of the deposited data

Results flagged for a closer look

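Of the 58 groups of 5 arrays examined for the named genes, 3 held a single array far from the other 4 by Dixon's criterion, which chance gives in about 1 in 20 groups. All 3 were on OUM 5. *Zfp746* was at -4.44 there, below the next array at -4.25. *Zfp317* was at -1.09, above the next at -1.18. *Zfp426* was at -0.63, above the next at -0.78.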

How the results depend on the processing

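No Zfp gene passed an adjusted p of 0.05 under any of the 26 alternatives. Of the 29 named genes, 27 kept the sign of their change under all 26. The exceptions were *Zfp64* (-0.029) and *Zfp213* (-0.0094), both within slide 2 alone. The 14 lower genes became 8 with median scaling, 9 with normexp, 23 within slide 1 and 8 without the 3 pituitary-rich arrays. The 5 higher genes became 3 without a filter on dim probes, 8 within slide 1, 12 within slide 2, 3 with the replicate block and 2 without the pituitary-rich arrays. With 1 array left out, 9 (without naive 5) to 17 were lower and 3 (without naive 3, OUM 2 or OUM 4) to 6 were higher, while 3.45% to 7.12% of all features were lower and 2.69% to 5.66% higher. Without OUM 1 the Zfp genes came close to their background: 7.8% were lower and 4.26% higher, beside 7.12% and 5.66% of all features. Without OUM 2, 9.22% were lower and 2.13% higher, beside 3.53% and 3.12%. Of all features, the 2 past the adjusted threshold became 0 with quantile normalization, no filter, the mean of probes, the replicate block, the methods' t-test or the pituitary-rich arrays left out, 1 with the intensity trend and robust prior, 160 within slide 2, and 0 to 1 with 1 array left out. The family median of -0.027 was -0.055 within slide 1 and 0.024 within slide 2, and that of all features, -0.011, was -0.037 and 0.018. The cause of these shifts was not tested. The replicate number, which the labels do not tie to a shared batch, left 11 lower and 3 higher as a block. These were 7.8% and 2.13% of the Zfp genes, beside 3.86% and 3.58% of all features. Same-numbered arrays correlated by -0.019, -0.058, 0.128, 0.340 and -0.099 after group means were removed. Within slide 2 the single naive array is assumed to vary like the OUM arrays, so the counts of genes past a p for that slide show little. The interval of the change was wide for the dim *Zfp319*, from 0.094 to 0.69. The widest of the family, from -0.47 to 0.54, was that of *Zfp641*, whose naive mean of -2.14 was above the -5.12 of *Zfp319*.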
